A study of Mus musculus with 6 samples.

Results

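Immune checkpoint and adenosine pathway genes were followed in stromal cells sorted from melanomas. They are 9 of the 53801 genes in the deposited table and were taken by name: Cd274, Pdcd1lg2, Cd276, Pvr, Cd47, Lgals9, Lgals1, Entpd1 and Nt5e. All 9 had counts, and 8 passed the filter on low counts and were tested, with Nt5e below it.

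The cells were CD45-CD31- PDPN+PDGFRα+ cells, sorted from subcutaneous MO5 tumors, which grow from B16-OVA mouse melanoma cells, in adult mice on a C57Bl/6 background. There were 3 libraries from mice labelled DTR+ (DTR) and 3 from littermates labelled DTR- without the transgene (Ctrl), and both groups received diphtheria toxin. The DTR mice carry a bacterial artificial chromosome in which Adam12 regulatory sequence drives the diphtheria toxin receptor together with the tTA transactivator, so that the toxin kills cells with an active Adam12 promoter. The comparison asks how PDPN+PDGFRα+ cells of toxin-treated tumors differ between mice with and without the transgene that targets ADAM12+ cells. The labels number the libraries within each group but do not tie them to animals, and p-values here measure the spread between these libraries.

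Checkpoint ligands are surface or secreted proteins that restrain T cells, natural killer cells and macrophages. PD-L1, the product of Cd274, and PD-L2, the product of Pdcd1lg2, bind PD-1 on T cells, and fibroblasts and tumor cells make PD-L1 in response to interferon. Extracellular ATP released by stressed cells is cut to AMP by CD39 (Entpd1) and from AMP to adenosine by CD73 (Nt5e), and adenosine dampens T cells through the receptors encoded by Adora2a and Adora2b.

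Total counts per library ran from 22339635 to 34271929, at which 3 counts, the smallest number treated as detected, are worth 0.0872 to 0.132 CPM, a gene's counts scaled to the library total with TMM factors. This floor covers counting error only. Adam12, the gene whose regulatory sequence drives the transgene, stood at 216, 181 and 175 CPM in Ctrl replicates 1, 2 and 3, and at 165, 151 and 112 CPM in DTR replicates 1, 2 and 3. All DTR libraries lay below all Ctrl libraries, with a log2 fold change of -0.42 (SE 0.15) and an adjusted p of 0.602 (edgeR quasi-likelihood test, Benjamini-Hochberg adjusted over all genes tested). Adam12 mRNA was thus still plainly present in the DTR libraries, at 0.748 times Ctrl (95% interval of the log2 fold change -0.77 to -0.06). The sorting markers Pdgfra (42.6 to 125 CPM in Ctrl and 54.0 to 132 CPM in DTR) and Pdpn (46.0 to 73.2 and 48.9 to 99.0 CPM) were detected in all libraries. Genes of pigment cells were also abundant. The summed level of 12 of 12 melanoma markers was 17930 to 21030 CPM in Ctrl and 16850 to 19880 CPM in DTR, led by Dct at 5744 to 7573 CPM over the 6 libraries. The 12 fibroblast markers summed to 15840, 6327 and 5967 CPM in Ctrl and to 12720, 6998 and 17740 CPM in DTR, so Ctrl replicate 1, DTR replicate 1 and DTR replicate 3 were the libraries rich in fibroblast RNA. In such bulk libraries fewer cells of a type and less RNA per cell cannot be told apart, and RNA of melanoma cells and of stromal cells cannot be told apart for the genes both express.

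The 5′ flanks of 4 members are shown, because 3 of them (Cd47, Entpd1 and Cd274) had the highest log2 fold changes among the members and the fourth, Lgals9, held the interferon motif that was searched. Each is the stretch without annotated UTR bases of the 250 bases before a RefSeq transcript start on GRCm38.p6, written 5′ to 3′ on the gene's strand, with motif matches in capitals. The positions are chr16:49855404-49855632 for Cd47 (plus strand), chr19:40659520-40659769 for the second Entpd1 start (plus strand), chr19:29367309-29367437 for Cd274 (plus strand) and chr11:78984947-78985174 for Lgals9 (minus strand).
Cd47: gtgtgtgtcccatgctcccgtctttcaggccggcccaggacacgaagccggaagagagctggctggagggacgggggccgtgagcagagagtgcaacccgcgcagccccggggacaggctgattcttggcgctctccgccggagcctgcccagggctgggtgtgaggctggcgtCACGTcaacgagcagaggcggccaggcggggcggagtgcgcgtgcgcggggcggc
Entpd1: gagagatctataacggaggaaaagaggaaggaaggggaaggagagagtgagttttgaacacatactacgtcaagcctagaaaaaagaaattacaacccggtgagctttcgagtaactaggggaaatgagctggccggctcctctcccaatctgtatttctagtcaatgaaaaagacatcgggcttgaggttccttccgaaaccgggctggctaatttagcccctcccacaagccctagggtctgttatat
Cd274: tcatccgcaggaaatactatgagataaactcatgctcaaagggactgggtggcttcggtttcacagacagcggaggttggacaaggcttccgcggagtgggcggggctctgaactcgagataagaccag
Lgals9: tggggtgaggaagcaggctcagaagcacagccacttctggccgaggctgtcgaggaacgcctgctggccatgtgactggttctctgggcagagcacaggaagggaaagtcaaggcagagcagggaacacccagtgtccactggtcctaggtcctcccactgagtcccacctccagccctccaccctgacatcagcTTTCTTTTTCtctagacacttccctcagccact

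The motifs searched on both strands were the HIF core ACGTG, the GAS motif TTCNNNGAA and the IRF core a pair of GAAA spaced by NN. RefSeq windows were at hand for 7 of the 9 members, all but Pvr and Lgals1. The capitals in Cd47 are a HIF core on the reverse strand, found in 16.6% of 32851 windows of 250 bases. Those in Lgals9 are an IRF core on the reverse strand, found in 2.98% of the windows. A second Cd47 window, which overlaps the first, holds the same match. The windows of the other 5 members held none of the 3 motifs. Those of Cd276 and Nt5e lie wholly in annotated UTR, so no 5′ flank of these genes was searched, and the GAS motif was found in 7.02% of all windows. A match describes the letters and is not a binding site.

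Per kilobase of merged exon, which allows levels of different genes to be compared, the members ran from a top-ranked to a barely detected gene. Lgals1, which encodes the glycan-binding protein galectin-1, was highest at 483 ± 60.3 CPM per kb (mean ± SD, n = 6 libraries) and ranked 22 of 16928 protein-coding genes with a count. Lgals9, encoding the TIM-3 ligand galectin-9, followed at 57.8 ± 4.95 CPM per kb, rank 453. Cd274 stood at 21.8 ± 8.79, Cd47 at 12.6 ± 4.08 and Cd276 at 10.5 ± 0.947 CPM per kb. The ranges of Cd274 and Cd47 overlapped, although Cd274 was above Cd47 in 6 of 6 libraries, and the ranges of Cd47 and Cd276 overlapped too, with Cd47 above in 5 of 6. Pvr was at 5.21 ± 0.799 CPM per kb and Entpd1 at 1.39 ± 0.670 CPM per kb. The lowest levels were those of Pdcd1lg2, at 0.366 ± 0.253, and Nt5e, at 0.0431 ± 0.0400 CPM per kb. These ranges overlapped across libraries, with Pdcd1lg2 above Nt5e in 6 of 6. Of the adenosine-producing pair, CD39 mRNA had 98 to 328 counts in a library. CD73 mRNA, often abundant in fibroblasts, also reached the 3 counts treated as detected in every library, but with only 3 to 25 counts.

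**Figure D1:**
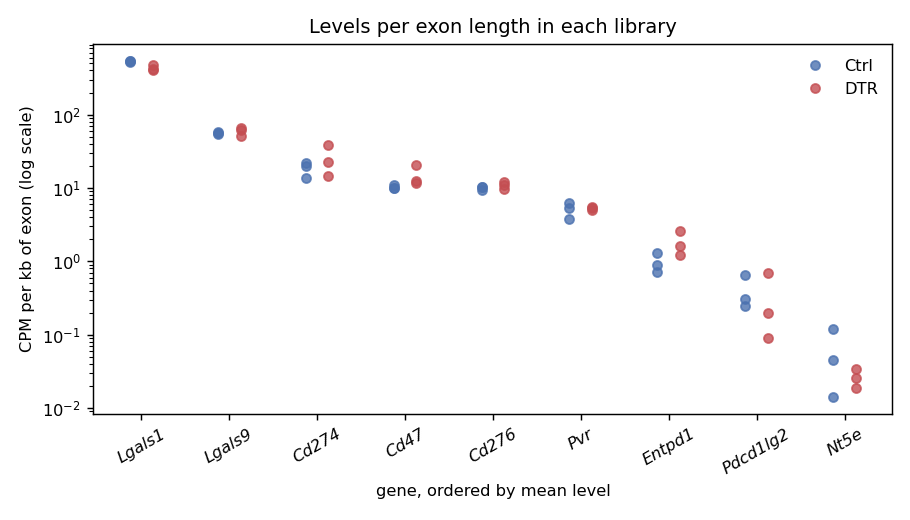
Level of each member per kilobase of merged exon (CPM per kb, log axis) in the 3 Ctrl (blue) and 3 DTR (red) libraries, 1 point a library, with genes ordered by their mean over the 6 libraries. Lgals1 stands at 408 to 542 CPM per kb and Nt5e at 0.0142 to 0.122 CPM per kb.

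No member passed the test. Across the table edgeR's quasi-likelihood test called 0 of 15133 genes at an adjusted p under 0.05 (0% called), with 1199 at an unadjusted p under 0.05 (7.92%), and DESeq2 called 31 of 20519 (0.151%). Of the 8 members tested, 3 had an unadjusted p under 0.05, namely Entpd1 and Cd47 with a higher and Lgals1 with a lower mean in DTR. In 1 member all DTR libraries lay above all Ctrl libraries, a pattern of 6.30% of all genes tested, and in 1 member all lay below, a pattern of 8.19%. The median log2 fold change of the 8 members was 0.09, beside 0.00 over all genes tested, and it ran from 0.01 without DTR replicate 3 to 0.17 without DTR replicate 2. With counts this small, the shares of the members are read only as a description.

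**Figure D2:**
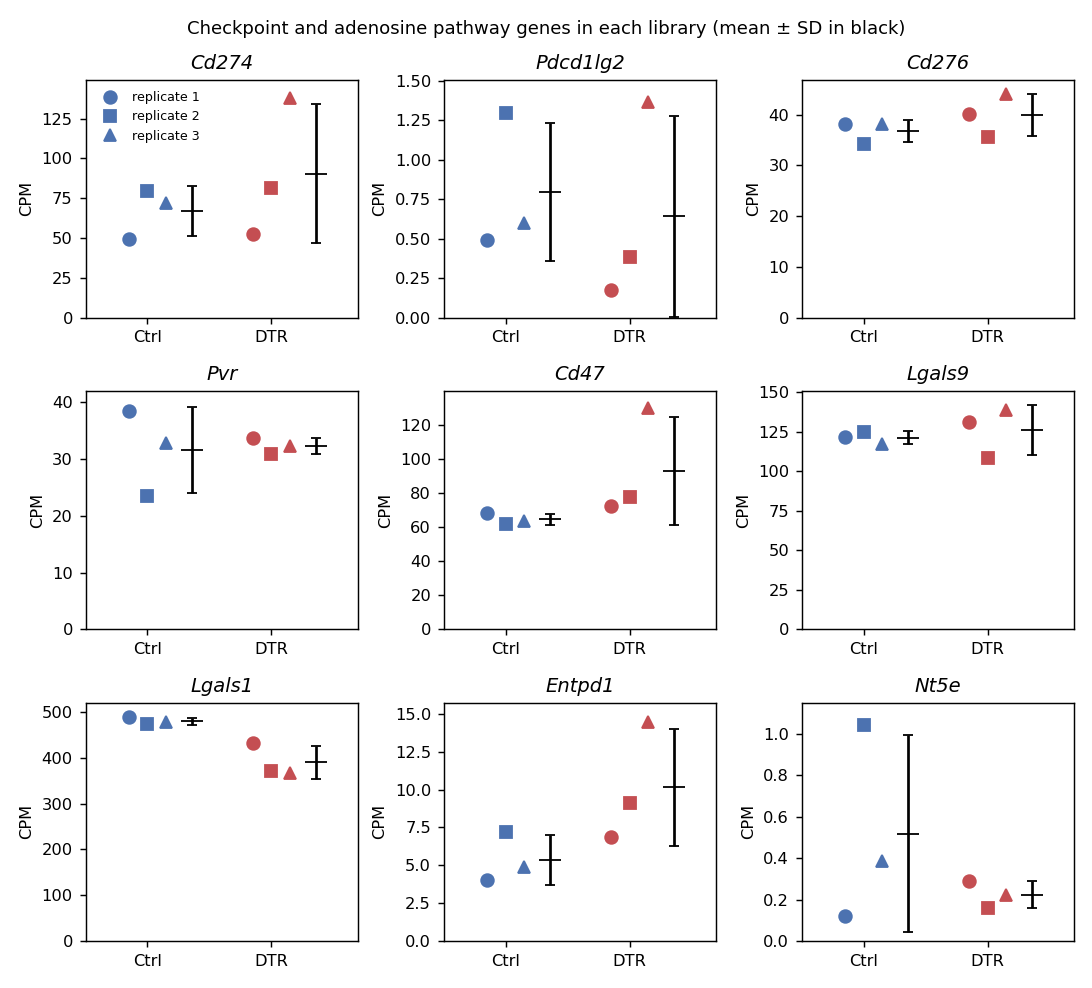
CPM of each member in every library, on linear axes from 0, with Ctrl in blue and DTR in red, the marker shape giving the replicate number and black marks giving the mean ± SD of 3 libraries. Lgals1 is below all Ctrl libraries in all DTR libraries, Cd47 is above in all, and the other 7 members overlap.

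Among the PD-1 ligands, Cd274 (ENSMUSG00000016496, chr19:29367455-29388095 on GRCm38) stood at 49.6, 79.7 and 72.3 CPM in Ctrl replicates 1, 2 and 3 and at 52.4, 81.4 and 138 CPM in DTR replicates 1, 2 and 3. The groups overlapped, and DTR replicate 3 was higher than the other 5 libraries. The means were 67.2 ± 15.7 CPM (SD, n = 3) and 90.5 ± 43.4 CPM (SD, n = 3). The log2 fold change was 0.43 (SE 0.33, 95% interval -0.33 to 1.19), and the adjusted p was 0.743 by edgeR with Benjamini-Hochberg adjustment. Without DTR replicate 3 it was -0.01, so the difference rested on that library. Of the exonic bases of Cd274, 511 of 3622 are also covered on the opposite strand by the antisense gene AC119228.1, and the authors counted reads by strand.

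Pdcd1lg2 (ENSMUSG00000016498, chr19:29410919-29471161), next to Cd274 on the same chromosome, had only 6 to 31 counts in a library. Its levels were 0.490, 1.30 and 0.597 CPM in Ctrl and 0.174, 0.386 and 1.37 CPM in DTR. The groups overlapped, and a difference was not detectable at this depth, since the 95% interval of the log2 fold change ran from -2.19 to 1.51 around -0.34 (SE 0.80). Pdcd1, which encodes their receptor PD-1, stood at 0.979, 5.52 and 2.39 CPM in Ctrl and 0.901, 1.29 and 1.23 CPM in DTR, with the overlap coming from Ctrl replicate 1. Its log2 fold change was -1.38 (SE 0.60, adjusted p = 0.630 by edgeR). Summed markers of T and NK cells, the main source of PD-1 and outside the CD45- gate, followed the same order in Ctrl, at 10.1, 64.0 and 30.5 CPM, and were 18.3 to 29.7 CPM in DTR, and their part in the value was not tested. Cd80, a ligand of CD28 and CTLA-4 that also binds PD-L1, was at 2.51 to 3.35 CPM in Ctrl and 2.38 to 5.99 CPM in DTR.

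Cd276, which encodes the B7-family protein B7-H3 (ENSMUSG00000035914, chr9:58524298-58555437), was close to even across libraries. It stood at 38.1, 34.2 and 38.1 CPM in Ctrl and 40.2, 35.6 and 44.0 CPM in DTR. The groups overlapped, and the log2 fold change of 0.12 (SE 0.11) had a 95% interval of -0.14 to 0.38, which in fold terms is 0.905 to 1.30. The log2 fold change was 0.04 without DTR replicate 3, 0.07 without Ctrl replicate 2, 0.19 without DTR replicate 2 and 0.06 with the fibroblast covariate. Of its exonic bases, 416 of 3658 lie opposite Gm10657.

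Pvr encodes CD155, a ligand of the inhibitory receptors TIGIT and CD96 and of the activating receptor CD226 (ENSMUSG00000040511, chr7:19903578-19921160). Its values were 38.4, 23.4 and 32.8 CPM in Ctrl and 33.6, 30.8 and 32.3 CPM in DTR. The DTR libraries lay inside the Ctrl range, and the log2 fold change was 0.03 (SE 0.17, 95% interval -0.37 to 0.43). Nectin2, which encodes another ligand of TIGIT and CD226, was at 18.3 to 20.0 CPM in Ctrl and 17.5 to 20.0 CPM in DTR. The receptor genes were low, with Tigit at 0.938 to 2.89 CPM, Cd96 at 0.0816 to 2.43 CPM and Cd226 at 0.694 to 2.13 CPM in Ctrl. In DTR they stood at 1.16 to 1.25, 0.220 to 1.38 and 0.494 to 0.969 CPM, and each of the 3 overlapped between groups.

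Cd47 encodes the signal by which cells avoid engulfment when it binds SIRPα on macrophages (ENSMUSG00000055447, chr16:49800533-49915010). It stood at 68.5, 62.1 and 63.6 CPM in Ctrl replicates 1, 2 and 3 and at 72.3, 77.7 and 130 CPM in DTR replicates 1, 2 and 3. All DTR libraries lay above all Ctrl libraries, though DTR replicates 1 and 2 lay much nearer to Ctrl than DTR replicate 3. The means were 64.7 ± 3.38 CPM (SD, n = 3) and 93.3 ± 31.8 CPM (SD, n = 3). The log2 fold change was 0.53 (SE 0.21, 95% interval 0.04 to 1.01), with an unadjusted p of 0.0374 and an adjusted p of 0.604 (edgeR, Benjamini-Hochberg). The exact permutation test on log2 CPM, two-sided, gave p = 0.1, the smallest that 3 libraries against 3 allow. Without DTR replicate 3 the log2 fold change was 0.21, and with the summed fibroblast markers as a covariate it was 0.38. DTR replicate 3 also had the highest fibroblast marker sum. Of the 12 fibroblast markers, all tested, 11 had a positive log2 fold change, with a median of 0.40 and none at an unadjusted p under 0.05, the same direction as Cd47, Cd274 and Entpd1. With the covariate the log2 fold change of Cd274 was 0.43. Ctrl replicate 1, the Ctrl library with the highest fibroblast marker sum, had the highest Ctrl value of Cd47 but the lowest of Cd274 (49.6 CPM) and Entpd1 (3.998 CPM). The part of fibroblast RNA in these values was not tested beyond that covariate.

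Sirpa, the gene of the CD47 receptor and itself expressed at 164 to 191 CPM, was at 186, 171 and 191 CPM in Ctrl and at 164, 166 and 168 CPM in DTR. All DTR libraries were lower than all Ctrl libraries, with a log2 fold change of -0.14 (SE 0.08, adjusted p = 0.664 by edgeR). Summed macrophage markers overlapped, at 213 to 271 CPM in Ctrl and 215 to 237 CPM in DTR. Mertk, a receptor for the engulfment of dying cells, made up 100 to 117 CPM of that sum. Of 11 macrophage markers tested, 7 had a negative log2 fold change, and Mrc1, the gene of the mannose receptor CD206, lay lower in all DTR libraries, at 11.4 to 17.9 CPM beside 20.2 to 26.2 CPM in Ctrl. Its log2 fold change was -0.57 (SE 0.20, unadjusted p = 0.01999, adjusted p = 0.602 by edgeR), and the part of macrophages in the Sirpa value was not tested. Thbs1, which encodes the CD47 ligand thrombospondin-1, was at 104 to 241 CPM in Ctrl and 112 to 242 CPM in DTR.

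The galectins bind sugar chains on surface receptors. Lgals9 (ENSMUSG00000001123, chr11:78962974-78984946) stood at 122, 125 and 117 CPM in Ctrl and 131, 108 and 139 CPM in DTR. The groups overlapped, and the log2 fold change was 0.06 (SE 0.11, 95% interval -0.19 to 0.30). Havcr2, the gene of its receptor TIM-3, was at 10.2 ± 3.59 CPM in Ctrl and 9.60 ± 0.345 CPM in DTR (SD, n = 3 each).

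Lgals1 (ENSMUSG00000068220, chr15:78926725-78930465), whose product can drive activated T cells into death, was the steadiest of the 3 members with an unadjusted p under 0.05. It stood at 489, 474 and 479 CPM in Ctrl replicates 1, 2 and 3 and at 433, 372 and 368 CPM in DTR replicates 1, 2 and 3. All DTR libraries lay below all Ctrl libraries. The means were 481 ± 7.57 CPM and 391 ± 36.1 CPM (SD, n = 3 each), and DTR was 0.813 times Ctrl (95% interval 0.703 to 0.942). The log2 fold change was -0.30 (SE 0.09, unadjusted p = 0.0117), and the adjusted p was 0.602 by edgeR with Benjamini-Hochberg adjustment. The two-sided exact permutation test gave p = 0.1. The log2 fold change ran from -0.36 to -0.24 over the 16 fits made. Of 12 melanoma markers, 10 also had a negative log2 fold change, with a median of -0.08, and Sox10, a pigment cell factor, lay lower in all DTR libraries at -0.28 (SE 0.10). Of 6 pericyte markers, 4 were tested and all 4 had a negative log2 fold change, with a median of -0.82. Their sums were 46.7 to 74.5 CPM in Ctrl and 37.4 to 49.2 CPM in DTR. Mcam, which overlapped between groups, was most of them, at 32.8 to 49.7 CPM in Ctrl and 27.8 to 37.3 CPM in DTR. Cspg4, the gene of NG2, lay lower in all DTR libraries at -1.02 (SE 0.33), while Rgs5 and Kcnj8 were at or under 1.06 CPM. Neither Sox10 nor Cspg4 passed the test (adjusted p = 0.602 for both by edgeR), and the part of such cells in the Lgals1 value was not tested.

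In the adenosine pathway, Entpd1 (ENSMUSG00000048120, chr19:40612366-40741602) had 98 to 328 counts in a library. It stood at 3.998, 7.20 and 4.92 CPM in Ctrl replicates 1, 2 and 3 and at 6.89, 9.10 and 14.5 CPM in DTR replicates 1, 2 and 3. The groups overlapped only through Ctrl replicate 2, which was above DTR replicate 1. The means were 5.37 ± 1.65 CPM and 10.2 ± 3.89 CPM (SD, n = 3 each), and DTR was 1.89 times Ctrl (95% interval 1.11 to 3.20). The log2 fold change was 0.91 (SE 0.33, unadjusted p = 0.0248), and the adjusted p was 0.602 by edgeR with Benjamini-Hochberg adjustment. Without DTR replicate 3 the log2 fold change was 0.57, and with the fibroblast covariate it was 0.92.

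CD39 is also made by macrophages and endothelial cells, which the CD45- and CD31- gates of the sort are meant to remove. Summed macrophage markers are given above for Sirpa and overlapped between groups. Endothelial markers summed to 29.1 to 35.8 CPM in Ctrl and 35.2 to 102 CPM in DTR, the highest value being that of DTR replicate 3, where Tek was at 62.8 CPM. Of 7 endothelial markers tested, 5 had a positive log2 fold change. Vwf, the gene of von Willebrand factor, stood at 12.1 to 15.5 CPM in Ctrl and 19.8 to 21.3 CPM in DTR, all DTR libraries above all Ctrl libraries, with a log2 fold change of 0.51 (SE 0.14, unadjusted p = 0.00691, adjusted p = 0.602 by edgeR). Pecam1, which encodes CD31, was at 2.61 to 5.02 CPM and 4.01 to 8.02 CPM, and Kdr was at 1.65 to 4.53 CPM and 1.58 to 11.98 CPM, both with overlap. The 2 tested markers with a negative log2 fold change were Cdh5, with means of 0.815 CPM in Ctrl and 0.270 CPM in DTR (-1.53, SE 0.96), and Ptprb, with 1.16 and 0.780 CPM (-0.58, SE 0.46), both with overlap. Of the 12 markers, Cdh5, Erg, Tie1, Egfl7, Cldn5, Emcn and Esam were at or under 1.37 CPM in all libraries. Esam was 1 of the 5 with a positive log2 fold change, at 0.24 (SE 0.60). Of 8 dendritic cell markers, 7 were tested, 6 with a positive log2 fold change and a median of 0.44, and none had an unadjusted p under 0.05. Their sums were low and overlapped, at 21.6 to 28.8 CPM in Ctrl and 24.7 to 29.8 CPM in DTR. The part of such cells in the Entpd1, Cd274 and Cd80 values was not tested.

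Nt5e (ENSMUSG00000032420, chr9:88327197-88372092) had 3, 25 and 11 counts in Ctrl and 10, 5 and 5 counts in DTR, which is 0.122, 1.046 and 0.386 CPM against 0.290, 0.161 and 0.220 CPM. The groups overlapped, and Ctrl replicate 1 was at the detection floor. The two-sided exact permutation test, which cannot go below 0.1, gave p = 0.5. In the 6 alternative fits that kept Nt5e its log2 fold change was negative, from -1.65 to -0.99, with adjusted p from 0.612 to 0.953 (edgeR and DESeq2), so that a difference was not resolved at this depth. Among genes of other routes to adenosine, Enpp1, which cuts ATP to AMP, was at 5.28 ± 2.45 CPM in Ctrl and 3.87 ± 0.655 CPM in DTR (SD, n = 3 each). Cd38, which degrades NAD, was at 3.81 to 4.57 CPM in Ctrl and 2.01 to 4.67 CPM in DTR.

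Of the adenosine receptors, Adora1 and Adora3 were at 0 in all libraries, which allows up to 0.0872 to 0.132 CPM. Adora2a, the main receptor on T cells, was at 1.84, 1.67 and 2.04 CPM in Ctrl and 1.80, 2.96 and 2.69 CPM in DTR. Adora2b stood at 3.67, 1.00 and 1.09 CPM in Ctrl and at 4.21, 1.16 and 7.62 CPM in DTR, high in the 3 libraries with the most fibroblast RNA, whose part in the value was not tested. Its log2 fold change was 1.17 (SE 0.74) and the groups overlapped. Ada, which removes adenosine, was at 2.55 to 3.67 CPM in Ctrl and 2.47 to 5.11 CPM in DTR.

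**Figure D3:**
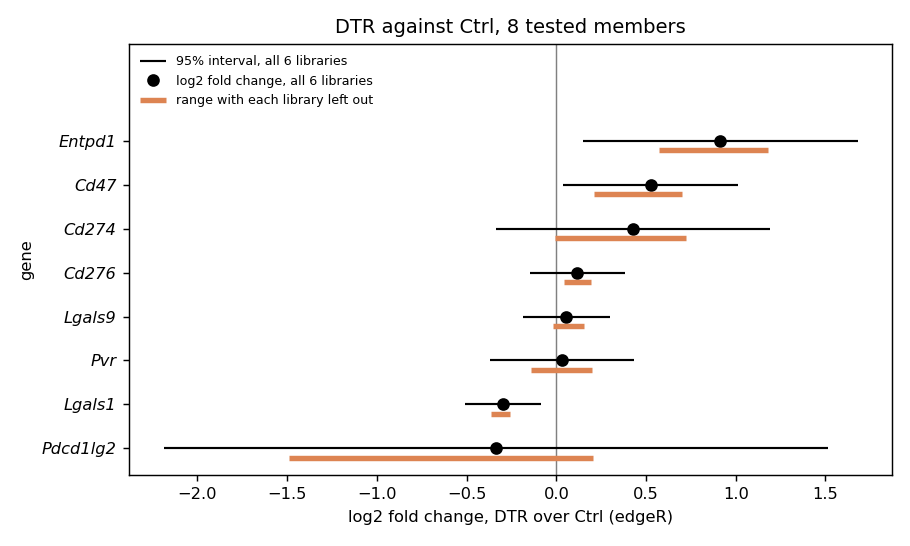
Log2 fold change of DTR over Ctrl for the 8 tested members (points), with the 95% interval of edgeR's fit (black lines) and the range when each library is left out in turn (orange bars). The intervals of Entpd1, Cd47 and Lgals1 leave out 0, and the orange bar of Cd274 reaches -0.01.

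Related genes were listed in 4 groups, none of which held a gene called by edgeR or DESeq2. Of 25 other checkpoint ligands, 14 were tested, 9 with a positive and 5 with a negative log2 fold change and a median of 0.22. That median was 0.05 without DTR replicate 3 and 0.42 without DTR replicate 1. The lowest was Fasl, a death ligand, at -0.85, with 0.0408 to 2.64 CPM in Ctrl and 0.290 to 0.969 CPM in DTR, and the highest was Cd200, which restrains myeloid cells, at 0.71. The most abundant was H2-T23, a non-classical MHC gene whose close relatives make its counts uncertain, at 21.1 to 43.9 CPM in Ctrl and 23.04 to 54.7 CPM in DTR.

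Of 18 checkpoint receptors, 17 were tested, 15 with a negative and 2 with a positive log2 fold change. Their median was -0.41, beside 0.00 for all genes tested, and none had an unadjusted p under 0.05. The median was -0.64, -0.03 and -0.12 without Ctrl replicates 1, 2 and 3. It was -0.23, -0.56 and -0.29 without DTR replicates 1, 2 and 3, and -0.10 with the fibroblast covariate. Its size thus depended on single libraries, and it was close to 0 without Ctrl replicate 2, while its sign was negative in each of these fits. The summed level was 206 to 236 CPM in Ctrl and 194 to 201 CPM in DTR, with Sirpa as most of it. Pdcd1 was lowest and Cd244a highest, at 0.58. Of the T and NK cell markers, 11 of 11 tested had a negative log2 fold change, with a median of -0.57, and most receptors in the list are genes of these cells, which the CD45- gate is meant to remove. The part of such cells in the receptor values was not tested.

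Of 30 adenosine pathway genes, 25 were tested, 18 with a positive and 7 with a negative log2 fold change and a median of 0.15. Dpp4, the gene of a surface peptidase that the authors took as a marker of inflammatory stromal cells, was highest. It was the only gene of the list with an unadjusted p under 0.05. It stood at 44.7, 21.5 and 33.3 CPM in Ctrl and at 62.4, 29.6 and 191 CPM in DTR, with overlap and a log2 fold change of 1.51 (SE 0.61, adjusted p = 0.604 by edgeR). DTR replicate 3 was far above the other 5 libraries. Alpl, a phosphatase that can also make adenosine, was lowest at -0.57, and Gja1, a connexin gene of ATP-releasing channels, was the most abundant at 48.6 to 94.3 CPM in Ctrl and 68.8 to 132 CPM in DTR. Pnp, which encodes a purine phosphorylase, stands under its name on more than 1 row, so its counts are uncertain.

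Of 19 regulators of checkpoint ligands, all were tested, 13 with a positive and 6 with a negative log2 fold change and a median of 0.15. That median was 0.03 without DTR replicate 3, 0.08 without DTR replicate 2, 0.09 without Ctrl replicate 3 and 0.08 with the fibroblast covariate. Socs1, an interferon-induced brake on cytokine signalling, was highest at 0.94, with 2.73 to 4.67 CPM in Ctrl and 3.96 to 12.1 CPM in DTR. Hif1a, the oxygen-sensing factor, was lowest at -0.17, at 134, 120 and 112 CPM in Ctrl and 110, 107 and 107 CPM in DTR, so that all DTR libraries lay below all Ctrl libraries. Stat3 was the most abundant, at 278 to 303 CPM in Ctrl and 252 to 335 CPM in DTR. Cmtm6, whose product keeps PD-L1 at the cell surface, stood at 29.95 to 34.8 CPM in Ctrl and 28.7 to 33.2 CPM in DTR.

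**Figure D4:**
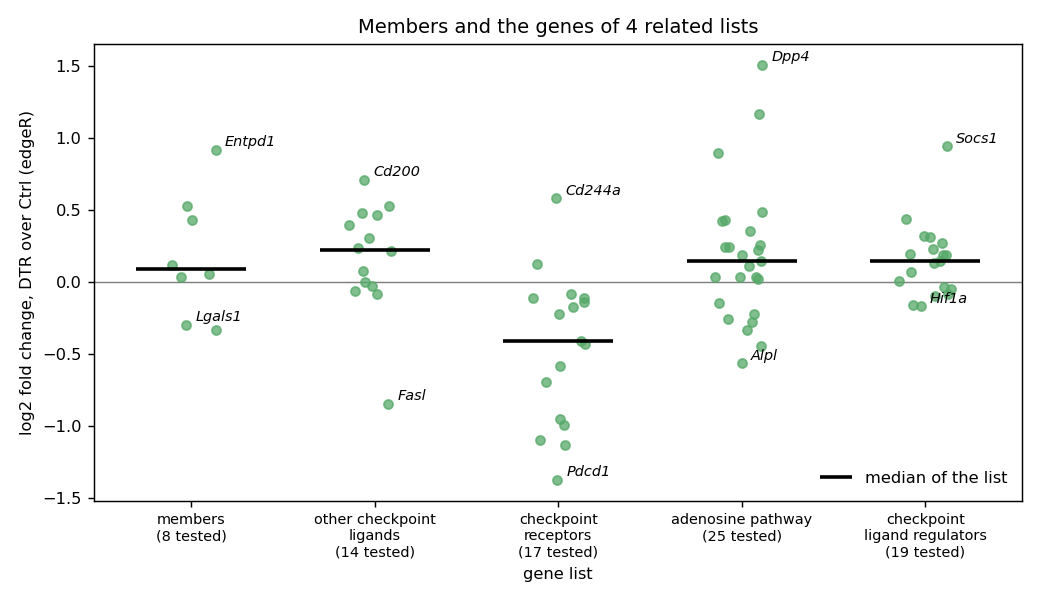
Log2 fold change of DTR over Ctrl (edgeR) for the tested members and the tested genes of 4 related lists, 1 point a gene, with the median of each list as a black line. The median is 0.09 for the members and -0.41 for the checkpoint receptors, the latter -0.03 without Ctrl replicate 2.

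The gene whose pattern over the 6 libraries was most like that of each member was found as the smallest root mean square difference in log2 CPM after centring each gene. For Cd47 it was Ddr2, a collagen receptor gene, at 0.04 beside a spread of 0.36 for Cd47 itself. For Lgals1 it was the ribosomal protein gene Rpl26, at 0.03 beside 0.17. For Cd274 it was Pcdh9, at 0.10 beside 0.49, and for Entpd1 the nucleoside transporter gene Slc28a2, at 0.12 beside 0.59. The nearest genes of Cd276, Pvr, Lgals9 and Pdcd1lg2 were Arhgap10, Ccdc58, Prdm15 and Gm7281, at 0.02, 0.05, 0.02 and 0.22. These are descriptions over 6 libraries, picked from 15133 genes, with no test.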

How the data were processed

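RNA-seq of sorted PDPN+PDGFRα+ cells was used for 3 Ctrl and 3 DTR libraries. The authors trimmed reads with cutadapt 3.4, aligned them to GRCm38 with STAR 2.7.3a and deposited the raw counts per gene from featureCounts 2.0.1, counted by strand, which are the only values used here. The deposited table also has 6 normalized columns, 1 per library, and the authors' means, fold changes, p-values and dispersions, none of which was used.

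Genes were kept with edgeR's filterByExpr (minimum count 10, minimum total 15), and DTR was compared with Ctrl by the two-sided quasi-likelihood test with TMM factors and Benjamini-Hochberg adjustment over 15133 genes, called at an adjusted p under 0.05. CPM were computed from full library totals and TMM factors, and exon lengths came from GENCODE M21. Exact permutation tests used log2(CPM + 0.1). Software was edgeR 4.0.16 and DESeq2 1.42.0 in R 4.3.3, with figures from matplotlib 3.10.9 in Python 3.11.15. The fit was also run on simulated data, whose planted changes were larger than those of the members. That run does not show whether changes of the members' size would be called. Within groups, Pearson correlations of log2 CPM across genes, which are not independent, were 0.963 to 0.976.

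Named genes were all members, their binding partners and enzymes, the lowest, the highest and the most abundant tested gene of each list, any called gene, and Adam12, Pdgfra and Pdpn. Members and lists were chosen with earlier results of these data known. Alternatives were other size factors, other filters, robust moderation, DESeq2, the replicate block, an offset on genomic span, each library left out, and a fibroblast marker covariate added after seeing the data.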

Additional observations from a re-analysis of the deposited data

How the results depend on the processing

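No member was called at an adjusted p under 0.05 in any of the fits made. Of 124 member values under alternatives, 117 kept their direction and 7 did not. Leaving out 1 library at a time, log2 fold changes ran from -0.007 to 0.72 for Cd274, from -1.49 to 0.21 for Pdcd1lg2, from -0.14 to 0.20 for Pvr and from -0.0173 to 0.15 for Lgals9. With the fibroblast marker covariate, chosen after seeing the data, it was -0.0502 for Pvr and -0.0072 for Lgals9. Entpd1, Cd47, Cd276 and Lgals1 kept their direction in all 16 fits each. The count of genes called over the whole table was 31 with DESeq2, 0 to 2 with 1 library left out (2 without Ctrl replicate 1), and 0 in the other fits. With the replicate number as a block, 0 genes were called, and the block changed no call. Same-numbered libraries deviated together with correlations of -0.05 to 0.13, so the numbers were not taken to pair the libraries. The cause of these changes was not tested. With 3 libraries a group, the intervals of Cd274, Pdcd1lg2 and Entpd1 span more than a doubling in fold terms. Nt5e, with 3 to 25 counts, was kept in only 6 fits. Among these, the edgeR fit to all genes with a count and the DESeq2 fit took every gene with a count, and in the others Nt5e passed the filter on low counts.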

Other observations

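The other galectin genes of the table were looked at after the values of Lgals1 were known. Lgals3, whose product binds sugar chains on macrophages and tumor cells, stood at 19.6 ± 4.11 CPM in Ctrl and 18.8 ± 4.56 CPM in DTR (SD, n = 3 each). Lgals8 was at 62.4 ± 1.91 CPM and 62.2 ± 7.95 CPM, with a log2 fold change of 0.00 (SE 0.11). Lgals4 was low, at 2.20 ± 0.416 CPM in Ctrl and 3.22 ± 0.173 CPM in DTR, with all DTR libraries above all Ctrl libraries and an adjusted p of 0.656 by edgeR with Benjamini-Hochberg adjustment. Lgals7 was under 1 CPM on average in both groups, and its groups overlapped. Of the 6 galectin genes tested, Lgals1 was the only one whose DTR libraries were all below its Ctrl libraries, a pattern of 8.19% of all genes tested. Lgals4 was the only one with all above, a pattern of 6.30% of all genes tested.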
